A study of Homo sapiens with 12 samples.

Results

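Amino acids, and the transmitters derived from them, enter and leave cells through carriers of the SLC1, SLC3, SLC6, SLC7, SLC36, SLC38 and SLC43 gene families, which are described here in D283 medulloblastoma cells with and without inactivation of ABL1 and ABL2. Members were all genes whose symbol is SLC followed by one of these family numbers, the letter A and a number, with pseudogenes left out. The rule gave 59 of the 49651 genes that had counts, all of them protein coding: 7 of SLC1, 2 of SLC3, 19 of SLC6, 13 of SLC7, 4 of SLC36, 11 of SLC38 and 3 of SLC43. ABL1 and ABL2 encode cytoplasmic tyrosine kinases, and the series asks about their role in medulloblastoma, a tumour of the cerebellum. The groups are 3 libraries of D283 cells with genetic inactivation of ABL1 and ABL2 and 3 libraries of D283 cells with a scrambled control, and messenger RNA was sequenced in all of them. Both groups were grown in DMEM-12 with added non-essential amino acids and glutamine. The sources used here give neither the method of inactivation nor the number of clones or pools, and no label tells whether the libraries are of separate cultures, so a p-value covers the spread among these libraries alone, which may be technical.

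SLC1 carriers take up glutamate and aspartate or exchange small neutral amino acids. SLC7 light chains exchange large neutral, cationic or acidic amino acids once they are bound to a heavy chain of the SLC3 family, and the SLC7 cationic transporters work without one. SLC6 carriers move transmitters, glycine, taurine, creatine, proline and neutral amino acids with sodium, SLC38 carriers move glutamine and other small neutral amino acids, and SLC36 and SLC43 carriers move amino acids across the plasma membrane or the lysosomal membrane. In the brain, astrocytes are known for glutamate uptake through SLC1A2 and SLC1A3 and for the release of glutamine, which neurons take up again through SLC38 carriers.

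The inactivated libraries held 36140406, 49034159 and 34292341 counts and the control libraries 35893081, 34951232 and 33505903 counts. A count of 0 in a library allows up to 3 counts, or between 0.0612 and 0.0895 CPM (counts relative to the total of the library), and this limit covers counting error only. ABL1 had 62.1, 62.3 and 61.1 CPM in the inactivated libraries, against 157, 148 and 154 CPM in the control libraries. ABL2 had 97.6, 112 and 102 CPM in the inactivated libraries, against 144, 136 and 134 CPM in the control libraries. Both genes were lower in every inactivated library than in any control library (edgeR's quasi-likelihood test with Benjamini-Hochberg adjustment, adjusted p of 5.4e-15 for ABL1 and 1.3e-06 for ABL2). Of 12 markers of Group 3 and MYC-driven medulloblastoma, 8 had at least 1 CPM in some library, with a summed level of 3345 to 3396 CPM in inactivated libraries and 2689 to 2748 CPM in control libraries, and NRL and BARHL1 were at 0 counts in all libraries. The markers did not move together: MAB21L2 had 629 to 677 CPM in inactivated libraries and 354 to 366 CPM in control libraries, while OTX2 had 661 to 675 CPM in inactivated libraries and 807 to 840 CPM in control libraries.

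Promoters are shown for the 5 members below, all of which hold a match to a motif named below. SLC7A7 had the largest increase, and SLC3A2 is the heavy chain that pairs with several of the light chains. SLC7A1, SLC38A5 and SLC1A7 are examples of changed members with an entry in the promoter table. Other changed members with an entry are not shown. Of these, SLC7A8, SLC1A4 and SLC6A9 (log2 fold changes of -0.91, -0.70 and -0.69) held no match, and SLC6A16 (0.77) held a match. Each printed promoter is the stretch from 250 bases before to 50 bases after the annotated start. The sequences are from RefSeq on GRCh38.p14 and are written from 5′ to 3′ along the gene. Where the table lists several starts for a gene, as for SLC7A7 and SLC3A2 with 3 each, the entry listed first was taken. For SLC3A2 that start lies inside the gene as counted, which begins at 62856109 on chromosome 11, and for the other 4 it is the 5′ end of the counted gene. Capitals mark matches on either strand to TGATGNAA (the C/EBP-ATF response element, bound by ATF4), CACGTG (the E-box, bound by MYC and related factors) or TGACNNNGC (the core of the antioxidant response element).
SLC7A7, chr14:22819742-22820041, reverse strand: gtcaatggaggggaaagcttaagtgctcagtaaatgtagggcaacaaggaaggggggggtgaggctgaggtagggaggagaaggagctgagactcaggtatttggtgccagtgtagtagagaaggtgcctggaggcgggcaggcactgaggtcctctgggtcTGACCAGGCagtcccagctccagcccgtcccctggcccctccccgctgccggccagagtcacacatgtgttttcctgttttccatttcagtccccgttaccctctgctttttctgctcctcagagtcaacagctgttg
SLC7A1, chr13:29595639-29595938, reverse strand: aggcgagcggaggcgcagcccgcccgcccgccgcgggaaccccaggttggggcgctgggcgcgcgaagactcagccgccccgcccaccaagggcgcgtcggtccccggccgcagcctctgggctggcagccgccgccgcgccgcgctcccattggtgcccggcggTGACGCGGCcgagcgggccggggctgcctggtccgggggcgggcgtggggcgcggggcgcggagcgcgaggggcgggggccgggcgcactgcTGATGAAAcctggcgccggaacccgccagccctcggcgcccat
SLC3A2, chr11:62881449-62881748, forward strand: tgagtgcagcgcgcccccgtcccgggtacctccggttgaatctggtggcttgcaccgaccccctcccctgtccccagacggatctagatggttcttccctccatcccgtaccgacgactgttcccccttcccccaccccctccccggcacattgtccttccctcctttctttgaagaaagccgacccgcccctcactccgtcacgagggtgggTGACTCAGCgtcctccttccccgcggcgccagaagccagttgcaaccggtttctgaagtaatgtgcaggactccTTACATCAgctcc
SLC38A5, chrX:48470211-48470510, reverse strand: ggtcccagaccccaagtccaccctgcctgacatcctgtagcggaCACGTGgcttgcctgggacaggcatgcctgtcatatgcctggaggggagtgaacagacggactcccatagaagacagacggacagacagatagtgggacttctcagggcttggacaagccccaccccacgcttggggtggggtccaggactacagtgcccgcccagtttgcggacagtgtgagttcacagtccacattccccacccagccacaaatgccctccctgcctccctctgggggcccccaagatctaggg
SLC1A7, chr1:53142589-53142888, reverse strand: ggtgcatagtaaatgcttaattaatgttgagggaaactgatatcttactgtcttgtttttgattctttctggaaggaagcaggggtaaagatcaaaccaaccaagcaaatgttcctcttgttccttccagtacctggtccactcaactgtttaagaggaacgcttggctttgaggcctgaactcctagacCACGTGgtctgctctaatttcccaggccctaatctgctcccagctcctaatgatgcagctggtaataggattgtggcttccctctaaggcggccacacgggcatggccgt

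Of the 37 tested members, 28 had a promoter in the table, and SLC3A1, SLC38A3, SLC7A2, SLC6A15, SLC43A3, SLC6A6, SLC6A12, SLC7A11 and SLC1A2 had none. TGATGNAA was found in 4 of the 28 promoters (14.3%), those of SLC1A3, SLC3A2, SLC38A1 and SLC7A1, against 3.67% of the first-listed promoters of all 27305 genes in the table and 1.71% of those of 11059 tested genes. CACGTG was found in 6 (21.4%), those of SLC1A7, SLC43A1, SLC38A7, SLC7A5, SLC6A16 and SLC38A5, against 7.44% over all genes in the table and 9.97% over tested genes. TGACNNNGC was found in 5 (17.9%), those of SLC3A2, SLC7A1, SLC7A7, SLC7A6 and SLC7A5, against 13.6% over all genes in the table and 15.02% over tested genes. No matches of different motifs overlapped in the printed promoters, and a match describes letters in this window, not binding.

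Of the 59 members, 37 passed the filter on low counts and were tested. In inactivated libraries 10 of these rose and 19 fell, 78.4% of the tested members, against a background of 59.3% of all 14704 genes tested that rose or fell. Over all genes 29.6% rose and 29.7% fell. A fold of at least 1.5 with a call was reached by 12 members, 3 that rose (SLC7A7, SLC3A1 and SLC6A16) and 9 that fell (SLC7A1, SLC6A9, SLC1A4, SLC6A6, SLC7A8, SLC1A7, SLC6A12, SLC7A11 and SLC1A2), which is 32.4% of the tested members against 24.0% of all genes. In 31 of the 37, or 83.8%, no inactivated library overlapped a control library (11 higher, 20 lower), against 63.2% of all genes. The median log2 fold change of the tested members was -0.11, against 0.0031 over all genes, and the median of its size was 0.48, against 0.27. Changes of the mixed RNA of a culture do not tell fewer cells of a type from less RNA per cell.

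**Figure D1:**
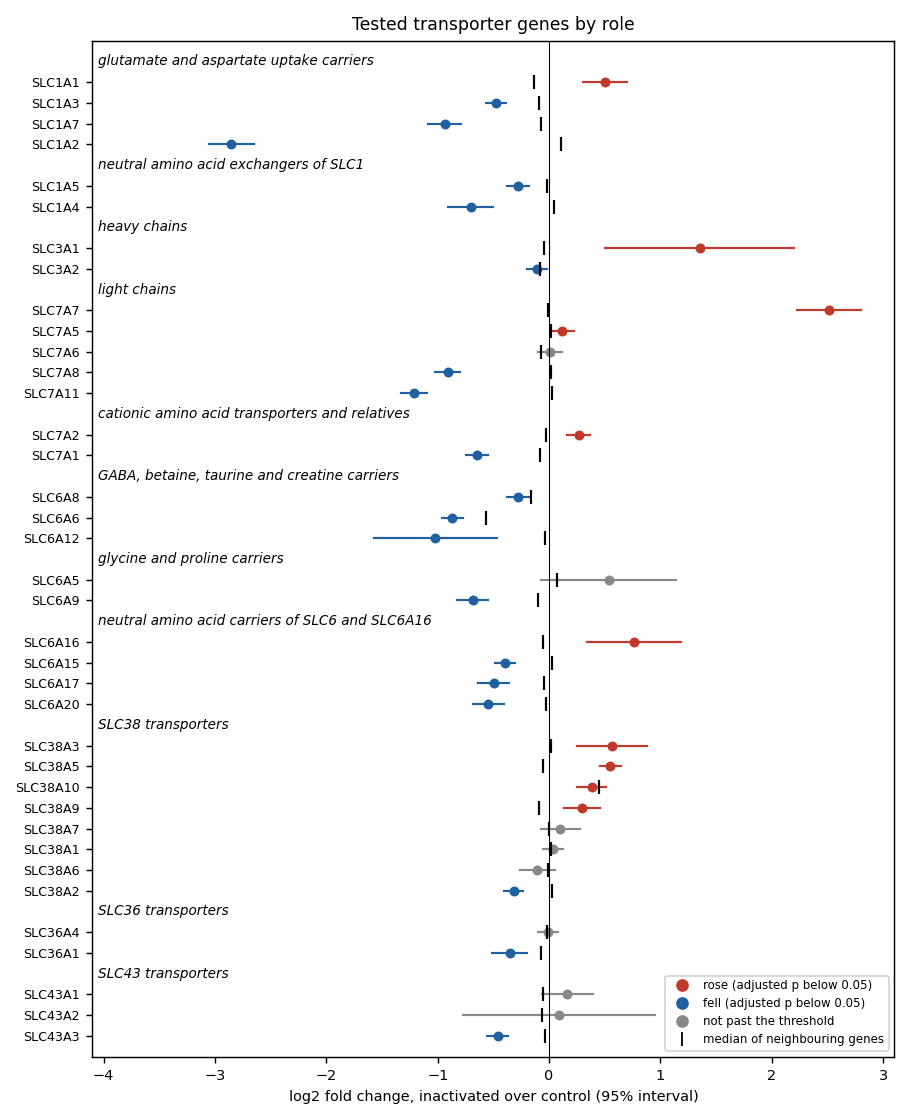
Log2 fold change of inactivated over control libraries (x axis) for the 37 tested transporter genes, grouped by role (y axis), with points coloured by call, bars for the 95% interval of the fit and a black tick for the median log2 fold change of the neighbouring genes. SLC7A7 lies farthest to the right at 2.51 and SLC1A2 farthest to the left at -2.85, and the ticks of SLC6A6 (-0.56) and SLC38A10 (0.45) lie away from 0.

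Levels per length were set by few members. TPM, which divide counts by the deposited exon length before scaling to a library total, summed over all 59 members to 1737 ± 25.1 in inactivated libraries and 1820 ± 24.6 in control libraries (SD, n = 3 each), a change of -4.56%. The 8 members with the highest TPM in control libraries were SLC3A2, SLC38A2, SLC38A5, SLC1A5, SLC7A5, SLC43A3, SLC6A15 and SLC7A1, and they held 80.4% of the summed TPM in inactivated libraries and 78.97% in control libraries. SLC3A2 was highest in both groups. SLC38A5 came next and SLC38A2 after it in inactivated libraries, and in control libraries these places were the other way round. At least 10 TPM was reached by 19 members in inactivated libraries and 20 in control libraries. The mean of SLC3A2 changed by -4.12% in TPM and by -7.31% in CPM, which carry a TMM factor while TPM do not. Changes of a few percent in TPM therefore depend on the scaling.

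Of the 4 tested carriers that take up glutamate 3 fell, against 29.7% of all genes, and SLC1A1 rose. SLC1A2 (GLT-1, chr11:35251205-35420507, reverse strand, GRCh38.p14), the main glutamate carrier of astrocytes, had 1.83, 2.08 and 1.93 CPM in the inactivated libraries, against 14.3, 13.997 and 14.1 CPM in the control libraries. All 3 inactivated libraries lay far below all 3 control libraries, with little spread in either group. The mean was 1.95 ± 0.123 CPM in inactivated cells and 14.2 ± 0.162 CPM in control cells (SD, n = 3 each here and below), a log2 fold change of -2.85 ± 0.096 (SE), or 7.22-fold lower, with an adjusted p of 8.4e-15 by edgeR's quasi-likelihood test with Benjamini-Hochberg adjustment, the test behind every adjusted p below. This was the largest change of any tested member. SLC1A7 (EAAT5, chr1:53087183-53142638), a carrier known from the retina, had 14.8, 13.6 and 13.2 CPM in inactivated libraries, against 28.4, 24.2 and 27.1 CPM in control libraries, with no overlap, a log2 fold change of -0.94 ± 0.071 and an adjusted p of 1.2e-09. Its promoter, printed above, held the E-box at 60 bases before the start. SLC1A3 (GLAST), the carrier of Bergmann glia and other astrocytes, had 53.9, 53.9 and 55.4 CPM in inactivated libraries, against 74.4, 76.7 and 76.6 CPM in control libraries, and fell by 0.48 on the log2 scale (adjusted p 1.4e-08). SLC1A1, the glutamate carrier of neurons, had a mean of 8.52 ± 0.26 CPM in inactivated cells and 6.02 ± 0.635 CPM in control cells and rose by 0.50 on the log2 scale (adjusted p 0.00015). Per length SLC1A3 was the highest of these carriers, with 32.4 TPM in inactivated libraries and 43.6 TPM in control libraries. The ratio of SLC1A2 to SLC1A3 TPM was 0.0119 in inactivated libraries and 0.0623 in control libraries.

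Beside SLC1A2 and SLC1A3, the 6 astrocyte markers summed to 208 to 215 CPM in inactivated libraries and 409 to 426 CPM in control libraries. Of these, GJA1 had 117 to 120 CPM in inactivated libraries and 306 to 310 CPM in control libraries, and SOX9 had 90.3 to 94.7 CPM in inactivated libraries and 103 to 116 CPM in control libraries. No other astrocyte marker reached 1 CPM in any library, GFAP had at most 0.0612 CPM in an inactivated and 0.0298 CPM in a control library, and S100B and ALDH1L1 were at 0 counts in all libraries. The 6 oligodendrocyte markers summed to 61.8 to 64.9 CPM in inactivated libraries and 116 to 120 CPM in control libraries, with MOG and MAG at 0. Sums of other lists were higher in inactivated libraries, for fibroblasts 24.1 to 26.9 CPM in inactivated and 17.1 to 18.1 CPM in control libraries, and for endothelial cells 9.77 to 11.0 CPM in inactivated and 4.09 to 4.51 CPM in control libraries. The members of these lists did not move together. Among fibroblast markers COL1A1 had 14.1 to 15.8 CPM in inactivated and 7.41 to 8.51 CPM in control libraries. DCN had 0.857 to 1.05 CPM in inactivated and 2.98 to 3.43 CPM in control libraries. Among endothelial markers KDR had 7.87 to 9.13 CPM in inactivated and 1.89 to 2.57 CPM in control libraries. VWF overlapped, with 1.84 to 1.90 CPM in inactivated and 1.82 to 2.28 CPM in control libraries. Microglia and leukocyte markers summed to 0.747 to 1.39 CPM in inactivated libraries and 0.801 to 1.16 CPM in control libraries. The part of these in the results was not tested.

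Both SLC1 exchangers of small neutral amino acids fell, against 29.7% of all genes. SLC1A5 (ASCT2), a glutamine exchanger, had 172, 155 and 175 CPM in inactivated libraries, against 203, 200 and 207 CPM in control libraries. Its groups did not overlap, and the log2 fold change was -0.28 ± 0.047 with an adjusted p of 4.8e-05. SLC1A4 (ASCT1), an exchanger of alanine, serine and cysteine, had 8.56, 7.32 and 8.36 CPM in inactivated libraries, against 15.1, 12.1 and 12.0 CPM in control libraries. The first control library stood above the others and the groups did not overlap (log2 fold change -0.70 ± 0.096, adjusted p 3.9e-06). Together the pair had 156 ± 8.79 TPM in inactivated libraries and 186 ± 1.18 TPM in control libraries.

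The heavy chain SLC3A2 and its most abundant light chain SLC7A5 moved little, while the lower light chains moved in both directions. SLC3A2 (4F2hc, also CD98), which brings light chains to the plasma membrane, had 319, 296 and 320 CPM in inactivated libraries, against 340, 330 and 338 CPM in control libraries. The log2 fold change was -0.11 ± 0.043 (adjusted p 0.035), and the call was lost without the second inactivated library (-0.07, adjusted p 0.144), without the first control library (adjusted p 0.121) and without the third (adjusted p 0.0602). SLC7A5 (LAT1), the exchanger that brings in leucine and other large neutral amino acids, had 306, 285 and 306 CPM in inactivated libraries, against 289, 258 and 279 CPM in control libraries. The groups overlapped, and its call (log2 fold change 0.12 ± 0.048, adjusted p 0.038) was lost without the first inactivated library (adjusted p 0.0904), the third (0.141), the second control library (log2 fold change 0.07, adjusted p 0.266) or the third (0.0685). Removing the median of neighbouring genes also ended both calls, with an adjusted p of 0.573 for SLC3A2 and 0.0738 for SLC7A5.

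SLC7A7 (y+LAT1, chr14:22773222-22819791, reverse strand), which exchanges cationic for neutral amino acids with SLC3A2 and is mutated in lysinuric protein intolerance, had 7.74, 7.38 and 7.80 CPM in inactivated libraries, against 1.52, 1.47 and 0.993 CPM in control libraries. The inactivated libraries lay close together and all far above the control libraries. Its mean was 7.64 ± 0.229 CPM in inactivated cells and 1.33 ± 0.290 CPM in control cells, a log2 fold change of 2.51 ± 0.14, or 5.71-fold higher, with an adjusted p of 1.0e-11. SLC7A8 (LAT2, chr14:23125295-23183660), an exchanger of a wide range of neutral amino acids, had 26.3, 23.9 and 25.8 CPM in inactivated libraries, against 48.0, 46.4 and 48.2 CPM in control libraries. It fell by 0.91 on the log2 scale (SE 0.053, adjusted p 2.6e-11), with no overlap. SLC7A7 and SLC7A8 lie on the same strand of chromosome 14, 305503 bases apart with 26 genes between them, and they moved in opposite directions. The ratio of SLC7A7 to SLC7A8 TPM was 0.592 in inactivated libraries and 0.0549 in control libraries.

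SLC7A11 (xCT, chr4:138164097-138312671, reverse strand), which exports glutamate in exchange for cystine, had 25.9, 29.5 and 27.4 CPM in inactivated libraries, against 66.4, 66.0 and 60.3 CPM in control libraries. Every inactivated library was under every control library by a wide margin. The log2 fold change was -1.22 ± 0.057, or 2.32-fold lower, with an adjusted p of 1.0e-12. Its antisense partner SLC7A11-AS1 shares 15.2% of its exon bases and had 5 counts over all libraries. SLC7A6 (y+LAT2), a light chain with the exchange of SLC7A7, had 69.3 ± 1.41 CPM in inactivated cells and 69.0 ± 5.29 CPM in control cells (log2 fold change 0.01, adjusted p 0.92). It shares 53.2% of its exon bases with SLC7A6OS on the other strand, which had 3459 counts over all libraries against 15515 for SLC7A6, and the sources used here do not say whether reads were counted by strand.

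Among the light chains that pair with SLC3A2, the summed level was 237 ± 4.69 TPM in inactivated libraries and 227 ± 9.74 TPM in control libraries, while its makeup differed. SLC7A5 held 74.7% of it in inactivated libraries and 69.3% in control libraries, and SLC7A6 13.2% in both. SLC7A8 held 6.31% in inactivated libraries and 12.0% in control libraries. SLC7A11 held 2.08% in inactivated libraries and 4.88% in control libraries, and SLC7A7 held 3.74% in inactivated libraries and 0.655% in control libraries. The summed light chain TPM was 73.5% ± 1.01 of the SLC3A2 TPM in inactivated libraries and 67.5% ± 2.38 in control libraries. These shares are of mRNA and were not tested, and the small difference in the summed TPM depends on the scaling. The other heavy chain, SLC3A1, which pairs with SLC7A9 in kidney and gut, had 0.602, 1.13 and 0.409 CPM in inactivated libraries, against 0.394, 0.317 and 0.151 CPM in control libraries. Its groups were barely apart and its call (log2 fold change 1.35 ± 0.40, adjusted p 0.0074) was lost without the second inactivated library (0.81, adjusted p 0.0885) or the third control library (adjusted p 0.0508). Of its exon bases 56.8% are shared with PREPL on the other strand, which had 42294 counts against 122 for SLC3A1, and reads of these genes could not be told apart without strand.

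**Figure D2:**
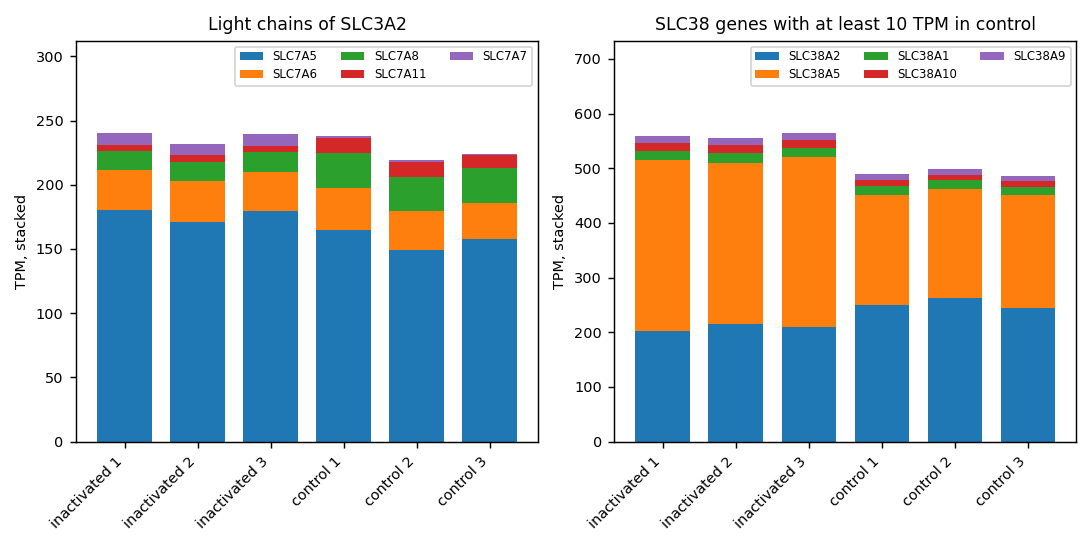
Stacked TPM (y axis) per library (x axis, inactivated libraries left of control libraries) for 5 light chains of SLC3A2 (left) and for the 5 SLC38 genes with at least 10 TPM in control libraries (right), with colours for genes. The SLC7A5 segment is the tallest on the left in all 6 libraries, and on the right the SLC38A5 segment is taller than that of SLC38A2 in the inactivated libraries and shorter in the control libraries.

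The cationic amino acid transporters moved in opposite directions. SLC7A1 (CAT1, chr13:29509414-29595688, reverse strand), which takes up arginine and lysine in most cells, had 159, 167 and 172 CPM in inactivated libraries, against 276, 248 and 255 CPM in control libraries. Its groups were well apart, with a log2 fold change of -0.64 ± 0.047, or 1.56-fold lower, and an adjusted p of 7.9e-10. Its promoter, printed above, held both TGATGNAA and TGACNNNGC. SLC7A2 (CAT2) had a mean of 182 ± 10.1 CPM in inactivated cells and 152 ± 7.47 CPM in control cells and rose by 0.26 on the log2 scale (adjusted p 0.00012). Per length SLC7A1 stood below SLC7A2 in inactivated libraries, with 54.2 and 63.1 TPM, and above it in control libraries, with 81.8 and 50.8 TPM, and the ratio of SLC7A1 to SLC7A2 TPM was 0.861 in inactivated libraries and 1.61 in control libraries.

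Of the 8 tested SLC38 carriers 4 rose, 1 fell and 3 did not pass the test, 62.5% called and near the 59.3% of all genes. SLC38A5 (SNAT5, chrX:48458544-48470260, reverse strand), which carries glutamine, asparagine and histidine in either direction, had 276, 256 and 275 CPM in inactivated libraries, against 183, 179 and 189 CPM in control libraries. All inactivated libraries were above all control libraries, with a log2 fold change of 0.55 ± 0.044, or 1.46-fold higher, and an adjusted p of 2.4e-09. SLC38A2 (SNAT2), an uptake carrier known to rise when amino acids are short, had 343, 355 and 356 CPM in inactivated libraries, against 436, 450 and 430 CPM in control libraries. It fell by 0.32 on the log2 scale (SE 0.041, adjusted p 1.9e-06), with no overlap. The ratio of SLC38A5 to SLC38A2 TPM was 1.46 in inactivated libraries and 0.801 in control libraries, and the whole family summed to 573 ± 4.06 TPM in inactivated libraries and 503 ± 6.83 TPM in control libraries.

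SLC38A3 (SNAT3), known for glutamine release from astrocytes, had a mean of 3.18 ± 0.325 CPM in inactivated cells and 2.14 ± 0.298 CPM in control cells and rose by 0.57 on the log2 scale (adjusted p 0.0032), a call that lane 2 alone did not give (0.32, adjusted p 0.155). SLC38A9, a lysosomal arginine sensor and carrier upstream of mTORC1, had a mean of 16.3 ± 1.11 CPM in inactivated cells and 13.3 ± 1.15 CPM in control cells and rose by 0.29 on the log2 scale (adjusted p 0.0028). SLC38A10 had a mean of 26.2 ± 0.628 CPM in inactivated cells and 20.1 ± 1.24 CPM in control cells, a log2 fold change of 0.38 (adjusted p 2.3e-05). SLC38A10 lies in a stretch of chromosome 17 where the median of the neighbouring genes was 0.45 on the log2 scale. With that median removed its value was -0.067 (adjusted p 0.365), so no call remained in either direction. SLC38A1 (SNAT1), the main glutamine uptake carrier of neurons, had 91.8 ± 2.27 CPM in inactivated cells and 89.7 ± 2.88 CPM in control cells, with a 95% interval of its log2 fold change from -0.06 to 0.12. SLC38A7, a lysosomal glutamine carrier, had 12.0 ± 0.17 CPM in inactivated cells and 11.2 ± 1.33 CPM in control cells and passed the threshold without the first control library alone (log2 fold change 0.21, adjusted p 0.0381). SLC38A6 had 9.63 ± 0.231 CPM in inactivated cells and 10.4 ± 0.29 CPM in control cells and did not pass (adjusted p 0.23).

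Among the SLC6 carriers of GABA, betaine, taurine and creatine, all 3 tested members fell, against 29.7% of all genes. SLC6A6 (TauT, chr3:14402576-14489349), the taurine carrier, had 67.2, 69.5 and 65.9 CPM in inactivated libraries, against 126, 118 and 127 CPM in control libraries. The groups were far apart, with a log2 fold change of -0.87 ± 0.045 and an adjusted p of 4.7e-12. On chromosome 3 the median of its neighbours was -0.56 on the log2 scale, and with that median removed SLC6A6 stood at -0.31 (adjusted p 9.5e-06). SLC6A12 (BGT1), a betaine and GABA carrier, had 0.465, 0.524 and 0.5846 CPM in inactivated libraries, against 0.872, 0.979 and 1.35 CPM in control libraries. Its groups did not overlap at this low level (log2 fold change -1.02 ± 0.26, adjusted p 0.0025). SLC6A8, the creatine carrier, had a mean of 34.5 ± 0.425 CPM in inactivated cells and 41.8 ± 1.16 CPM in control cells and fell by 0.28 on the log2 scale (adjusted p 7.1e-05), a call that ended when the median of its neighbours was removed (-0.11, adjusted p 0.057).

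For glycine, SLC6A9 (GLYT1), the carrier known from glia, had 15.9, 16.6 and 15.3 CPM in inactivated libraries, against 25.9, 23.8 and 27.4 CPM in control libraries. It fell by 0.69 on the log2 scale (SE 0.066, adjusted p 3.7e-08), with every inactivated library below every control library. SLC6A5 (GLYT2), the glycine carrier of inhibitory neurons, had 0.588 ± 0.0155 CPM in inactivated cells and 0.405 ± 0.0666 CPM in control cells, and did not pass (log2 fold change 0.53 ± 0.29, adjusted p 0.12). SLC6A15 (B0AT2), a neuronal carrier of proline and branched-chain amino acids, had 223, 227 and 228 CPM in inactivated libraries, against 304, 304 and 285 CPM in control libraries. Its groups did not overlap, and it fell by 0.39 on the log2 scale (adjusted p 1.4e-07). SLC6A17 (NTT4), a carrier of synaptic vesicles, had 13.9 ± 0.362 CPM in inactivated cells and 19.7 ± 1.28 CPM in control cells and fell by 0.50 on the log2 scale (adjusted p 3.3e-06). SLC6A20, a proline carrier, had 13.8 ± 0.490 CPM in inactivated cells and 20.1 ± 1.02 CPM in control cells and fell by 0.54 (adjusted p 7.7e-07). SLC6A16, a carrier with no known substrate, had 3.23, 2.52 and 1.72 CPM in inactivated libraries, against 1.49, 1.44 and 1.48 CPM in control libraries. Inactivated libraries were spread widely, all above the tight control libraries (log2 fold change 0.77 ± 0.20, adjusted p 0.003).

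**Figure D3:**
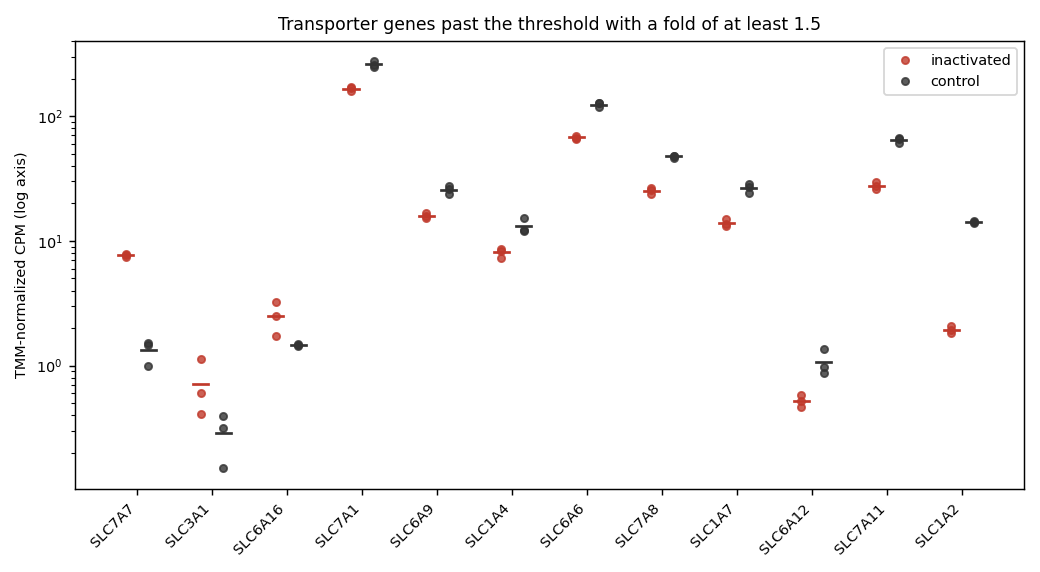
TMM-normalized CPM on a log axis (y axis) for the 12 members past the threshold with a fold of at least 1.5 (x axis), with a point per library, a bar at the mean of 3 and inactivated libraries (red) left of control libraries (black). The groups are apart for every gene shown, most narrowly for SLC3A1, whose lowest inactivated library had 0.409 CPM and whose highest control library had 0.394 CPM.

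In the remaining families, SLC36 and SLC43, 2 members fell and none rose. Called were 50% of the 2 tested SLC36 members and 33.3% of the 3 tested SLC43 members, against 59.3% of all genes. SLC43A3, named with the amino acid carriers of its family but known as a carrier of purine nucleobases, had 101, 98.5 and 109 CPM in inactivated libraries, against 144, 141 and 139 CPM in control libraries. It fell by 0.46 on the log2 scale (SE 0.045, adjusted p 5.0e-08), with no overlap. SLC36A1 (PAT1), a proton-coupled carrier of lysosomes and the plasma membrane, had 16.9 ± 1.44 CPM in inactivated cells and 21.6 ± 1.64 CPM in control cells and fell by 0.35 (adjusted p 0.00038). SLC36A4 had 64.3 ± 1.44 CPM in inactivated cells and 64.7 ± 0.586 CPM in control cells, with a 95% interval of its log2 fold change from -0.10 to 0.08. The leucine carriers SLC43A1 (LAT3), with 4.69 ± 0.134 CPM in inactivated cells and 4.19 ± 0.256 CPM in control cells, and SLC43A2 (LAT4), with 0.325 ± 0.060 CPM in inactivated cells and 0.312 ± 0.186 CPM in control cells, did not pass (adjusted p 0.20 and 0.86).

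The other 22 members were too low to be tested. No library had a count of 12 members, among them the dopamine carrier SLC6A3, the noradrenaline carrier SLC6A2, the Purkinje cell glutamate carrier SLC1A6, and SLC6A7, SLC6A18, SLC6A19, SLC7A4, SLC7A13, SLC36A2, SLC36A3 and SLC38A4. Among the 10 with counts, SLC38A8 had 31 counts over the inactivated libraries and 16 over the control libraries, a ratio per depth of 1.69 with a 95% counting interval from 0.898 to 3.31. SLC7A14, a relative of the cationic transporters, had 18 counts over the inactivated libraries and 3 over the control libraries, a ratio of 5.24 with an interval from 1.53 to 27.8. The GABA and taurine carrier SLC6A13 had 20 counts over the inactivated libraries and 13 over the control libraries, and the serotonin carrier SLC6A4 had 7 over the inactivated and 5 over the control libraries. SLC7A3 had 4 counts in the inactivated libraries, all in the same library, and none in the control libraries. SLC7A9 had at most 2 counts in a library, as had SLC7A10 and SLC6A14, and SLC38A11 and SLC6A11 at most 1. Pseudogene copies of SLC7A5 and SLC6A8 took between 0 and 6 counts per library each.

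Few of the tested members lay among neighbouring genes that were shifted together. The median log2 fold change of the 25 nearest genes with at least 5 CPM on either side was 0.2 or more in size for SLC6A6 and SLC38A10 alone. For the other tested members it lay between -0.17 and 0.11.

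The wider amino acid pathway was followed in 6 lists, of which 124 of 143 genes were tested, 31 rose (25%, against 29.6% of all genes) and 52 fell (41.9%, against 29.7%). Of the amino acid response genes, targets of ATF4 that rise when amino acids are short, 7 rose and 16 fell of 26 tested, 88.5% called against the background of 59.3%, with a median log2 fold change of -0.20 against 0.0031 over all genes. ATF5, an ATF4 target and factor, fell to 36.3 ± 0.917 CPM in inactivated cells, against 69.7 ± 4.90 CPM in control cells (log2 fold change -0.94, adjusted p 1.8e-11). NUPR1, a stress-induced nuclear protein, fell by 0.73 and CEBPB, a C/EBP factor, by 0.76 on the log2 scale (adjusted p 7.3e-09 and 7.5e-08). PYCR1, an enzyme of proline synthesis, rose by a log2 fold change of 0.58 (adjusted p 5.1e-09) among neighbours with a median of 0.48. ATF4 itself, named after its values were seen, had 396 ± 29.0 CPM in inactivated cells and 507 ± 24.1 CPM in control cells and fell by 0.36 (adjusted p 8.8e-06), and ASNS, likewise, had 5.82 ± 0.414 CPM in inactivated cells and 6.65 ± 0.270 CPM in control cells and did not pass (adjusted p 0.094).

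Of the genes of glutamate, glutamine and GABA metabolism 6 rose and 7 fell of 17 tested, 76.5% called against 59.3% of all genes (median 0.038). GLS2, the liver-type glutaminase, rose to 3.30 ± 0.463 CPM in inactivated cells, against 0.337 ± 0.0841 CPM in control cells (log2 fold change 3.27, adjusted p 3.2e-10). OAT, which links ornithine to glutamate and proline, rose to 42.8 ± 1.32 CPM in inactivated cells, against 8.50 ± 0.374 CPM in control cells (log2 fold change 2.33, adjusted p 3.5e-16). GLUL, glutamine synthetase, rose to 2419 ± 53.1 CPM in inactivated cells, against 1320.0 ± 8.96 CPM in control cells (log2 fold change 0.87, adjusted p 2.4e-12), among neighbours with a median of 0.33. ALDH5A1, which ends GABA breakdown, fell by 1.16 on the log2 scale (adjusted p 1.3e-11) among neighbours with a median of 0.56. For glutathione synthesis and cystine use, the pathway that SLC7A11 feeds, 2 rose and 3 fell of 12, 41.7% called and below the 59.3% of all genes (median -0.12). GGT1, which splits extracellular glutathione, rose by a log2 fold change of 1.495 and GCLC, the rate-limiting enzyme of glutathione synthesis, by 0.56, the second among neighbours with a median of 0.51. TXNRD1, thioredoxin reductase, fell by 0.49 and GSR, glutathione reductase, by 0.29.

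Of the 36 genes of amino acid sensing by mTORC1, 7 rose and 15 fell, 61.1% called and near the 59.3% of all genes (median -0.06). SESN3, a sestrin, fell by 0.51 on the log2 scale among neighbours near 0, while CASTOR2, a relative of an arginine sensor, and SEC13, a GATOR2 subunit, had log2 fold changes of -0.85 and -0.54 among neighbours with medians of -1.10 and -0.60. RPTOR, the mTORC1 subunit raptor, rose by a log2 fold change of 0.54 among neighbours with a median of 0.44. Of the cytosolic aminoacyl-tRNA synthetases and their scaffold proteins 7 rose and 6 fell of 22 tested, 59.1% called and near the share of all genes (median -0.0080). AIMP2, a scaffold protein, fell by 0.88 and SARS1, seryl-tRNA synthetase, by 0.35, while EEF1E1 and EPRS1 rose by log2 fold changes of 0.59 and 0.30 among neighbours with medians of 0.43 and 0.37. Of vesicular and other transporters 2 rose and 5 fell of 11 tested, 63.6% called and near the 59.3% of all genes (median -0.21). The acetyl-CoA carrier SLC33A1 rose by a log2 fold change of 0.81 and the aromatic amino acid carrier SLC16A10 by 0.74, the second among neighbours with a median of 0.42. The vesicular glutamate carrier SLC17A7 fell by 1.05, and the vesicular acetylcholine carrier SLC18A3 had 2 counts over the inactivated libraries and 50 over the control libraries, a ratio per depth of 0.0349 with a 95% counting interval from 0.0041 to 0.133. Every gene named from these lists passed the threshold in edgeR's quasi-likelihood test with Benjamini-Hochberg adjustment, apart from ASNS.

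**Figure D4:**
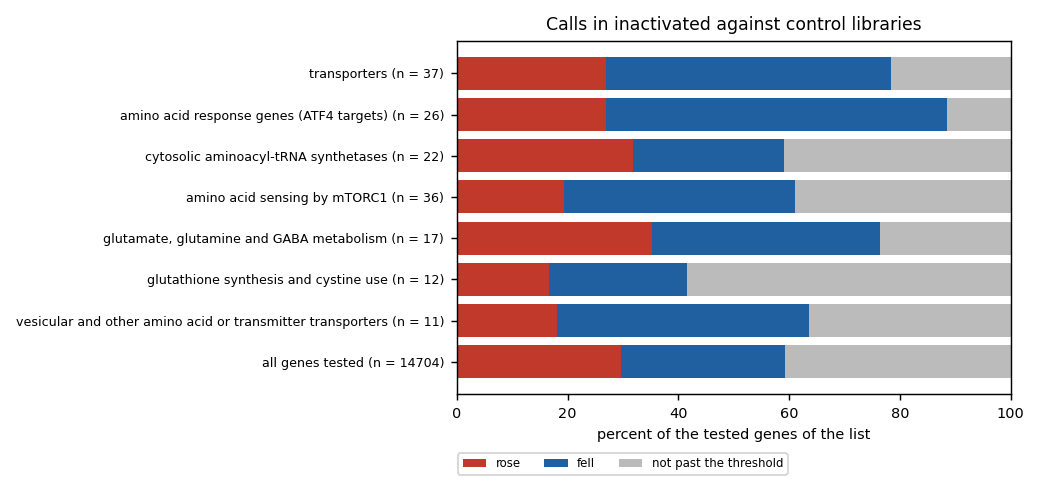
Share of tested genes (x axis, percent) that rose (red), fell (blue) or did not pass the threshold (grey) in inactivated against control libraries, for the transporters, the 6 pathway lists and all genes tested (y axis). The transporters and the amino acid response genes have wider blue segments (51.4% and 61.5%) than all genes tested (29.7%).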

How the data were processed

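Total RNA of D283 cells was enriched for mRNA and sequenced as 50 bp paired-end reads, per the labels. The deposited table holds raw counts for each gene in each lane, made by the authors with STAR 2.7.2b and featureCounts 1.6.3 on GRCh38.p14, per the submitters' processing notes. For strand and multi-mapping settings, the sources used here give nothing. The deposited exon length of each gene, in bases, is another kind of value and served for TPM.

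Lanes of a library were summed. Libraries of a group differed by more than sampling noise (chi-square over degrees of freedom, 3.17 to 13.6). Genes were filtered with filterByExpr (minimum count 10, minimum total 15), scaled by TMM and compared, inactivated over control, with edgeR 4.0.16 (quasi-likelihood F test, two-sided, Benjamini-Hochberg adjustment over all 14704 genes, threshold 0.05). Rose and fell are used of genes past this threshold. CPM of ABL1, ABL2, members and pathway genes are TMM-normalized, those of cell type markers and of the counting limit are per library total, and TPM carry no TMM factor. Alternatives were DESeq2 1.42.0, limma-voom 3.58.1, RLE factors, no filter, each lane alone, a null of a 1.5-fold change, libraries left out in turn, and removal of the median log2 fold change of neighbouring genes.

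Members and lists were chosen with earlier results of these data known. Values per library are given for ABL1, ABL2, members called with a fold of at least 1.5 and the 8 highest by TPM in control libraries, and also for SLC1A3. Up to 4 genes of lowest p past the threshold from each list are named with means or log2 fold changes. Some items are not reported here.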

Additional observations from a re-analysis of the deposited data

How the results depend on the processing

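The 10 rises and 19 falls of transporters, and the 31 and 52 of the pathway lists, stayed within 1.5 times of these counts with DESeq2, limma-voom, RLE factors, no filter, either lane, or neighbours' medians removed. Against a null of a 1.5-fold change, 1 of the 37 tested transporters rose (SLC7A7) and 5 fell (SLC1A2, SLC7A11, SLC1A7, SLC7A8 and SLC6A6). Of the 124 tested pathway genes 7 rose and 11 fell, and of all 14704 genes tested 2280 were called in either direction. Such a null gives fewer calls by construction. The shares of transporters and of pathway genes called were then near that of all genes. Leaving out libraries in turn gave 8 to 11 transporters that rose and 18 to 19 that fell, and 28 to 33 and 49 to 53 pathway genes. With neighbours' medians removed SLC38A10 was at -0.067 and lost its call, and ABL2 stood at -0.70 on the log2 scale. Without the filter SLC7A14 also rose (adjusted p 0.0376). Ordered by TPM or CPM, the levels of members differ because CPM are not divided by length. Depth limits members of a few counts, whose intervals cover counting error only. No paired analysis was possible because the labels give the groups no shared replicate numbers.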
